A study of Mus musculus with 16 samples.

Results

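Inflammasome parts, IL-1 family genes, Tnf, Il6ra and the NF-kB inhibitor gene Nfkbia were measured in mouse liver by RNA sequencing. The 10 genes, Nlrp3, Pycard, Casp1, Il1b, Il18, Il1rn, Il1r1, Tnf, Il6ra and Nfkbia, were chosen by gene name from the 23258 genes of the deposited count table. All 10 were found, and all 10 passed the filter on low counts that left 16830 genes to test. The liver samples came from C57BL/6 mice in 4 groups: wild type on chow (3 libraries), liver knockout of the microRNA miR-33 on chow (4 libraries), wild type fed high-fat diet (4 libraries) and knockout fed high-fat diet (5 libraries). Age, sex and the length of feeding are not given in the labels, and Alb-Cre, a Cre recombinase under the albumin promoter of hepatocytes, is named only in the title of the deposited table. The level of miR-33 itself was not analysed here, so the deletion was not checked in these libraries. Nothing in the labels says that the libraries of a group came from separate animals, so p-values may reflect technical spread alone. Sample titles carry a separate number series for each diet, and diet and that numbering cannot be told apart.

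The NLRP3 sensor, the adaptor ASC (encoded by Pycard) and caspase-1 assemble into the inflammasome, in which caspase-1 cleaves the precursors of IL-1 beta and IL-18 into their active forms. Transcripts of Nlrp3, Il1b and Tnf are induced through NF-kB, and NF-kB also induces its own inhibitor, I kappa B alpha (Nfkbia), which closes a feedback loop. In the liver, resident macrophages (Kupffer cells) and recruited monocytes are the best known sources of IL-1 beta and TNF, whereas hepatocytes carry receptors for IL-1 and IL-6.

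miR-33 pairs with target transcripts through its seed, so its mature sequence was set against the 3′ UTRs of the 10 genes. The mature mmu-miR-33-5p (RefSeq, GRCm38.p6, chr15:82198127-82198147, plus strand) is shown 5′ to 3′ with its seed, bases 2 to 8, in capitals. The 7-base complement of that seed, CAATGCA, occurred in the longest annotated 3′ UTR (GENCODE M21) of 1 of the 10 genes, Tnf, at UTR bases 384 to 390, where the capitals mark it.
mmu-miR-33-5p: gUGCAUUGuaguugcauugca
Tnf 3′ UTR site: ccctgaggtgCAATGCAcagcc
Over the longest 3′ UTRs of all protein-coding genes, 7.12% (1496 of 21011) held these letters, and 3.91% (468 of 11980) did so within a window as long as the Tnf UTR, 764 bases. The match is a description of sequence and not a measured site.

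Because NF-kB is a known inducer of several of these genes, their promoters were searched for the NF-kB consensus motif on both strands, from 250 bases before to 50 bases after each RefSeq transcription start (GRCm38.p6). It matched in 2 of the 10 genes (20%), Nlrp3 and Nfkbia, against 8.46% of all promoter windows of that length (2779 of 32851). Both windows are printed 5′ to 3′ on the strand of the gene, Nlrp3 from chr11:59541319-59541618 (plus strand) and Nfkbia from chr12:55492598-55492897 (minus strand), with the match in capitals.
Nlrp3 promoter: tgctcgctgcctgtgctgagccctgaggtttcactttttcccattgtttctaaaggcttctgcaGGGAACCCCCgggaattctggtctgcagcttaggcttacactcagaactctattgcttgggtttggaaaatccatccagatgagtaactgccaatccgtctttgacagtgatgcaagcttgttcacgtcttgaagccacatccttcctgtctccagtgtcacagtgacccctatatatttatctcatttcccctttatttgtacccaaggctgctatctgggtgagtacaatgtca
Nfkbia promoter: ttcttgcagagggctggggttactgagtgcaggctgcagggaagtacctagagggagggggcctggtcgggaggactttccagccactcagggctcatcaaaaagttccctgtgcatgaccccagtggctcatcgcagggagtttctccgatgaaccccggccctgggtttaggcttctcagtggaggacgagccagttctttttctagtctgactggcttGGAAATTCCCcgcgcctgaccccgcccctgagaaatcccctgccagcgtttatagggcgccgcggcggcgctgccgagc
The Nlrp3 match lies at -186 to -177 from the start and reads as the motif on both strands, and the Nfkbia match lies at -29 to -20 and reads as the motif on the strand opposite to the gene. For the other genes the search says only that these letters are not in the window used.

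Library totals ran from 15888436 to 29469645 estimated counts, and the values below are read counts scaled to library size by TMM (CPM), which compare libraries but not genes of different length. A principal component analysis of log2 CPM separated the diets on the first component, with scores of -58.1 to -44.5 for chow and 15.3 to 54.3 for high-fat diet. Chow wild type 3 stood apart on the second component, at -48.8, and high-fat knockout 1 on the third, at -50.2. Replicate numbers follow the order of deposition and pair nothing. The 9 hepatocyte markers in the table summed to between 74631 and 118699 CPM per library, so the labelled tissue carried its defining transcripts.

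**Figure D1:**
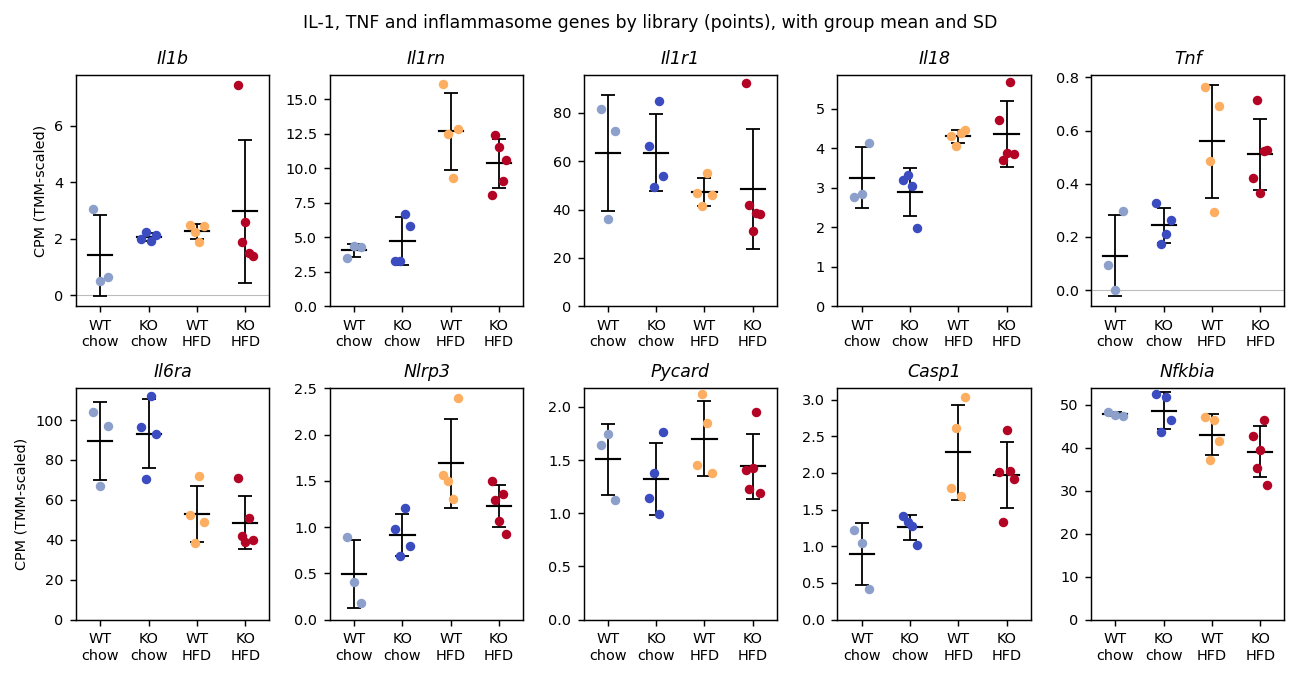
TMM-scaled CPM (y axis) of the 10 genes in each of the 16 libraries (points) for wild type (WT) and knockout (KO) on chow and high-fat diet (HFD), with the group mean (line) and SD (bars). For Il1rn every high-fat library lies above every chow library, while for Il1b and Il1r1 a single knockout library on high-fat diet, at 7.44 and 92.3 CPM, lies far above the other 4 of its group.

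Between the diets 5 of the 10 genes passed the test in wild type and 4 in knockout, and between the genotypes 0 did. In wild type, 4 of the 10 rose (Il1rn, Nlrp3, Casp1 and Tnf) and Il6ra fell at an edgeR adjusted p under 0.05, where 15.2% of all tested genes rose and 14.2% fell. The median log2 fold change of the 10 genes was 0.52, against -0.02 over all tested genes. In knockout, 2 of the 10 rose (Il1rn and Il18) and 2 fell (Il6ra and Nfkbia), where 17.4% of all tested genes rose and 16.2% fell, and the median was 0.46 against -0.01. With 10 genes, these counts are small against such a background, and they say nothing particular about these 10 genes. Non-overlap between diets, given below for some genes, was not counted over all tested genes, so it sets none of the 10 apart. Without chow wild type 3 and high-fat knockout 1 together, 5 genes passed in each genotype, with Il1r1 added in knockout.

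Among the inflammasome parts, the sensor Nlrp3 and the protease Casp1 rose on high-fat diet in wild type, and the adaptor Pycard did not pass the test in either genotype. Nlrp3 (chr11:59541568-59566957, plus strand, mm10), which detects danger signals and starts assembly, had 0.894, 0.408 and 0.178 CPM in the 3 wild-type chow libraries and 1.57, 1.5, 1.31 and 2.39 CPM in the 4 wild-type high-fat libraries. All 4 high-fat libraries lay above all 3 chow libraries, and the mean rose from 0.493 ± 0.366 to 1.69 ± 0.480 CPM (SD, n = 3 and 4). The change was 3.26-fold (log2 1.71 ± 0.39 SE, edgeR adjusted p = 0.00293). It depended in size on chow wild type 1, without which the log2 fold change of Nlrp3 was 2.49 (edgeR adjusted p = 0.000516).

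In knockout, Nlrp3 had 0.978, 0.689, 1.2 and 0.795 CPM on chow and 1.5, 1.29, 1.06, 1.36 and 0.925 CPM on high-fat diet. These groups overlapped, and the log2 fold change of 0.44 ± 0.31 SE did not pass (edgeR adjusted p = 0.302). The means, 0.917 ± 0.226 on chow and 1.23 ± 0.231 on high-fat diet (SD, n = 4 and 5), both lay between the 2 wild-type means. The diet effect on Nlrp3 was smaller in knockout by 1.27 ± 0.50 SE on the log2 scale, with edgeR adjusted p = 0.697, so a difference between the genotypes was not established. Where Nlrp3 alone of the 10 genes reached an unadjusted p under 0.05 for that difference, 6.6% of all tested genes did.

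Casp1 (chr9:5298517-5307266, plus strand), the protease that matures IL-1 beta and IL-18, had 1.22, 1.05 and 0.414 CPM in wild type on chow and 1.80, 2.61, 1.68 and 3.03 CPM in wild type on high-fat diet. The groups did not overlap, and the mean rose from 0.895 ± 0.426 to 2.28 ± 0.647 CPM (SD, n = 3 and 4), a 2.49-fold change (log2 1.32 ± 0.33 SE, edgeR adjusted p = 0.00534). In knockout the values were 1.41, 1.34, 1.28 and 1.02 CPM on chow and 2.01, 1.33, 2.58, 2.02 and 1.92 CPM on high-fat diet. There, 4 of the 5 high-fat libraries exceeded every chow library, and the log2 fold change of Casp1 was 0.65 ± 0.27 SE (edgeR adjusted p = 0.0738). The diet effects on Casp1 differed by -0.67 ± 0.42 SE between knockout and wild type (edgeR adjusted p = 0.839).

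Pycard (chr7:127989708-127993868, minus strand), whose protein ASC bridges sensor and protease, ranged from 0.992 to 2.12 CPM over the 16 libraries. Its log2 fold change with diet was 0.18 ± 0.26 SE in wild type and 0.11 ± 0.23 SE in knockout (edgeR adjusted p = 0.649 and 0.762). The overlapping gene Gm45205 on the other strand of Pycard had at most 6.14 counts. Whether counting used strand is not stated, and likewise Gm42809, opposite Il6ra, had at most 15.7 counts and Il1bos, opposite Il1b, at most 2.60.

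Of the IL-1 family members, the antagonist Il1rn rose in both genotypes, Il18 rose in knockout, and the agonist Il1b and the receptor Il1r1 passed in neither. Il1rn (chr2:24336853-24351495, plus strand), which encodes the IL-1 receptor antagonist, had 3.53, 4.37 and 4.32 CPM in wild type on chow and 16.1, 12.5, 9.26 and 12.8 CPM in wild type on high-fat diet. In knockout it had 3.26, 3.32, 6.66 and 5.79 CPM on chow and 8.10, 12.4, 11.6, 9.07 and 10.6 CPM on high-fat diet. Every high-fat library exceeded every chow library of either genotype. The rise was 3.12-fold in wild type (log2 1.64 ± 0.25 SE, edgeR adjusted p = 9.98e-05) and 2.20-fold in knockout (log2 1.14 ± 0.21 SE, edgeR adjusted p = 0.000497). The diet effects on Il1rn differed by -0.50 ± 0.32 SE between the genotypes (edgeR adjusted p = 0.839).

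Il1b (chr2:129364570-129371140, minus strand), the agonist, had 3.06, 0.524 and 0.651 CPM in wild type on chow and 2.48, 2.23, 1.90 and 2.44 CPM in wild type on high-fat diet. One chow library was thus above, and the other 2 below, all of the high-fat libraries. In knockout Il1b had 2.01, 2.24, 1.91 and 2.12 CPM on chow and 7.44, 1.91, 2.61, 1.5 and 1.39 CPM on high-fat diet. Knockout replicate 1 on high-fat diet was 7.44 CPM against 1.85 ± 0.553 CPM for the other 4 libraries (SD, n = 4). Il1b did not pass in either genotype, with log2 fold changes of 0.63 ± 0.61 SE in wild type and 0.49 ± 0.51 SE in knockout (edgeR adjusted p = 0.469 and 0.491). Each value turned on 1 library: without chow wild type 1 the log2 fold change of Il1b in wild type was 1.94 (edgeR adjusted p = 0.0411), and without high-fat knockout 1 that in knockout was -0.14.

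Since IL-1 signalling depends on agonist and antagonist together, the log2 ratio of Il1rn to Il1b was taken in each library from log2 CPM with a prior count of 2. In chow libraries it was 0.20, 2.87 and 2.58 in wild type and 0.68, 0.55, 1.75 and 1.41 in knockout. In high-fat libraries it was 2.66, 2.44, 2.24 and 2.35 in wild type and 0.12, 2.65, 2.11, 2.53 and 2.86 in knockout. The ratio was above 2 in 8 of 9 high-fat and 2 of 7 chow libraries, and its ranges overlapped. Averaged over the genotypes, the ratio was higher on high-fat diet by 0.75 on the log2 scale, or 1.68-fold (two-sided exact permutation of diet within genotype over 4410 assignments, p = 0.122). Without high-fat knockout 1 the difference was 0.99 (exact permutation p = 0.0196), and without chow wild type 1 it was 0.33 (exact permutation p = 0.365).

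Il18 (chr9:50554827-50581841, plus strand), whose precursor hepatocytes and macrophages keep in store, had 2.78, 2.85 and 4.14 CPM in wild type on chow and 4.32, 4.07, 4.38 and 4.46 CPM in wild type on high-fat diet. In knockout it had 3.21, 3.32, 3.05 and 1.99 CPM on chow and 4.73, 3.71, 3.89, 5.69 and 3.87 CPM on high-fat diet. The knockout groups did not overlap, and Il18 rose 1.52-fold there (log2 0.60 ± 0.18 SE, edgeR adjusted p = 0.017). In wild type a single chow library reached the high-fat range, and the log2 fold change of 0.41 ± 0.21 SE did not pass (edgeR adjusted p = 0.154). The diet effects on Il18 differed by 0.19 ± 0.28 SE (edgeR adjusted p = 0.941), and the knockout call was lost without chow knockout 4 (edgeR adjusted p = 0.0685).

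Il1r1 (chr1:40225080-40317258, plus strand), the signalling receptor for IL-1, had 81.5, 36.3 and 72.5 CPM in wild type on chow and 46.6, 41.5, 55.0 and 45.8 CPM in wild type on high-fat diet. The knockout libraries had 66.1, 49.2, 84.6 and 53.7 CPM on chow and 92.3, 41.9, 31.2, 38.5 and 38 CPM on high-fat diet. High-fat knockout 1 had the highest value of all 16 libraries, and the other 4 of its group lay below every knockout chow library. Il1r1 did not pass with all libraries (log2 -0.43 ± 0.36 SE in wild type and -0.39 ± 0.31 SE in knockout, edgeR adjusted p = 0.403 and 0.365). Without high-fat knockout 1 its log2 fold change in knockout was -0.74 (edgeR adjusted p = 0.0188).

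Tnf (chr17:35199381-35202008, minus strand), the cytokine that drives NF-kB and cell death through its receptors, was the thinnest of the 10 in reads, with 0 to 21 counts per library. It had 0.0941, 0 and 0.296 CPM in wild type on chow, where the library at 0 allows up to 0.175 CPM (3 counts), and 0.764, 0.487, 0.295 and 0.691 CPM in wild type on high-fat diet. The lowest high-fat library lay just under the highest chow library. Tnf rose in wild type by a log2 fold change of 2.08 ± 0.61 SE (edgeR adjusted p = 0.0149). No chow library held more than 6 counts of Tnf, so it passed the low-count filter only through the high-fat libraries, where it is high, and its place among the genes that rose is no support for the group. At this depth the call rests on few reads: without chow wild type 1 or 2 the edgeR adjusted p of Tnf was 0.0634 or 0.0646, and without chow wild type 3 its log2 fold change was 3.31.

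In knockout Tnf had 0.326, 0.172, 0.213 and 0.265 CPM on chow and 0.421, 0.714, 0.364, 0.523 and 0.529 CPM on high-fat diet. Every high-fat value was above every chow value, and the log2 fold change of Tnf was 1.06 ± 0.47 SE (edgeR adjusted p = 0.0886). Its diet effects differed by -1.03 ± 0.79 SE between knockout and wild type (edgeR adjusted p = 0.86).

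Il6ra (chr3:89864059-89913197, minus strand), the ligand-binding chain of the IL-6 receptor, fell with high-fat diet in both genotypes. It had 104, 67.1 and 97.2 CPM in wild type on chow and 52.6, 38.5, 71.9 and 48.8 CPM in wild type on high-fat diet. In knockout it had 96.7, 70.6, 112 and 92.9 CPM on chow and 70.9, 41.7, 39.0, 51.0 and 40.2 CPM on high-fat diet. In each genotype 1 high-fat library overlapped the lowest chow library. The log2 fold change of Il6ra was -0.76 ± 0.24 SE in wild type (edgeR adjusted p = 0.0285) and -0.94 ± 0.21 SE in knockout (edgeR adjusted p = 0.00358), with a difference of -0.18 ± 0.32 SE (edgeR adjusted p = 0.951). The wild-type call was lost without any 1 of 5 of its 7 libraries, with an edgeR adjusted p of up to 0.106 (without chow wild type 1).

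Nfkbia (chr12:55489410-55492648, minus strand), the feedback inhibitor of NF-kB, was steady by comparison. It had 48.3, 47.7 and 47.5 CPM in wild type on chow and 47.2, 37.1, 46.5 and 41.6 CPM in wild type on high-fat diet. The wild-type groups did not overlap, but the log2 fold change of -0.15 ± 0.12 SE did not pass (edgeR adjusted p = 0.351). In knockout Nfkbia had 52.4, 43.8, 51.9 and 46.5 CPM on chow and 42.7, 35.4, 39.5, 46.4 and 31.3 CPM on high-fat diet. It fell there by 0.32 ± 0.10 SE on the log2 scale (edgeR adjusted p = 0.0225), with 1 high-fat library among the chow values. Of the 9 runs that each left out 1 library of the knockout groups, 4 lost this call, with an edgeR adjusted p of up to 0.0731, and the diet effects on Nfkbia differed by -0.17 ± 0.16 SE (edgeR adjusted p = 0.892).

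**Figure D2:**
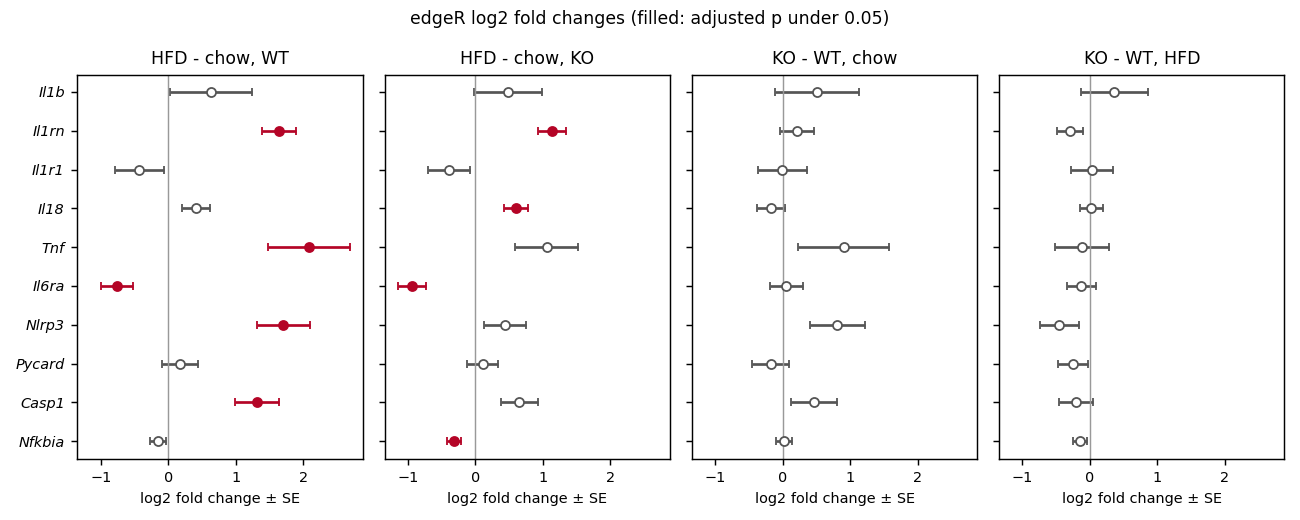
Log2 fold changes (x axis) of the 10 genes with SE bars from the edgeR fit, for high-fat diet (HFD) against chow in wild type (WT) and knockout (KO), and for knockout against wild type on each diet. Filled points passed an adjusted p under 0.05: there are 5 in wild type and 4 in knockout for diet, and 0 in either panel for genotype.

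The knockout itself changed none of the 10 genes past the threshold on either diet. On high-fat diet 0 of the 10 passed at an edgeR adjusted p under 0.05 (0 at an unadjusted p under 0.05, and 0 by DESeq2 and by limma voom), where 0.00594% of all tested genes passed. Log2 fold changes of knockout against wild type there ran from -0.46 ± 0.29 SE for Nlrp3 to 0.36 ± 0.49 SE for Il1b, and 7 of the 10 were below 0. All 10 genes overlapped between the genotypes, where 1.24% of all tested genes did not. On chow 0 of the 10 passed in edgeR (0 at an unadjusted p under 0.05, and 0 by DESeq2 and by limma voom), where again 0.00594% of all tested genes passed.

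The largest chow differences between the genotypes were those of Tnf and Nlrp3. Their log2 fold changes were 0.91 ± 0.68 SE and 0.81 ± 0.41 SE (edgeR adjusted p = 0.907 and 0.846), and 7 of the 10 genes were above 0. All 10 genes overlapped between the genotypes on chow too, where 5.62% of all tested genes did not. The mean of the 2 knockout effects passed for 0 of the 10 genes (0 at an unadjusted p under 0.05, and 0 by DESeq2 and by limma voom) and for 0.0178% of all tested genes. The difference of the 2 knockout effects passed for 0 of the 10 genes by each of these tools (1 in edgeR at an unadjusted p under 0.05) and for 0% of all tested genes. For Tnf, which holds the seed match to miR-33, the values on high-fat diet were 0.559 ± 0.212 CPM in wild type and 0.510 ± 0.134 CPM in knockout (SD, n = 4 and 5).

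Levels of different genes can be set side by side only per length, as CPM per kilobase of merged exons. On that scale Nfkbia was highest in each group, with means of 24.2 to 30.2. Il6ra and Il1r1 followed, at 10.4 ± 2.28 and 9.97 ± 3.76 CPM per kilobase in wild type on chow and 6.13 ± 1.61 and 7.42 ± 0.882 for wild type fed high-fat diet (SD, n = 3 and 4), which do not differ beyond their spread. Il18 was next, with means of 2.80 to 4.24. At the low end, Tnf and Nlrp3 had 0.0793 ± 0.0923 and 0.122 ± 0.0901 CPM per kilobase in wild type on chow, also within their spread. The receptors and the inhibitor were thus the abundant transcripts, and the cytokine and the sensor the rare ones.

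Other genes of the same pathways, in 5 lists that also hold the 10 genes themselves, had members that rose and members that fell with diet. Over all tested genes 15.2% rose and 14.2% fell in wild type, and 17.4% and 16.2% in knockout, and the counts below are to be read against these shares. Of 25 tested inflammasome and pyroptosis genes, 9 rose and 4 fell in wild type (median log2 0.67), and 6 rose and 3 fell in knockout (median 0.41), the falls being near or below the shares over all genes. Casp4, the protease that senses cytosolic lipopolysaccharide, rose from 0.528 ± 0.207 to 1.72 ± 0.443 CPM in wild type (SD, n = 3 and 4) with an edgeR adjusted p of 0.000942, and 2.09-fold in knockout (edgeR adjusted p = 0.00719). Mefv, which encodes the sensor pyrin, rose by 1.90 ± 0.45 SE on the log2 scale in wild type and by 1.2 ± 0.39 SE in knockout (edgeR adjusted p = 0.00411 and 0.0226). Mefv had chow means of 0.314 and 0.366 CPM. On chow, Card9, Panx1 and Nlrp1b of this list had at most 0.353, 0.442 and 0.470 CPM. All of these passed the low-count filter only through the high-fat libraries, so their place in the list counts and medians is no support for the list. The DNA sensor Aim2 rose in wild type (log2 1.36 ± 0.41 SE, edgeR adjusted p = 0.0183) and did not pass in knockout (log2 0.86 ± 0.35 SE, edgeR adjusted p = 0.0684). Nlrp12, a member of the NLR family, went the other way and fell from 82.2 ± 16.9 to 34.7 ± 7.98 CPM in wild type and from 91.3 ± 8.39 to 29.9 ± 5.22 CPM in knockout (SD, n = 3, 4, 4 and 5), with edgeR adjusted p = 9.56e-05 and 2.14e-06. Txnip did not pass in wild type (log2 -0.65 ± 0.34 SE, edgeR adjusted p = 0.172) and fell in knockout (log2 -0.92 ± 0.30 SE, edgeR adjusted p = 0.0286).

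In the IL-1 family list, 6 of 19 tested genes rose and 2 fell in wild type (median log2 0.33), and 4 rose and 4 fell in knockout (median 0.21). Il1rl2, at most 0.435 CPM on chow, and Il18rap, with chow means of 0.168 and 0.397 CPM, passed the low-count filter only through the high-fat libraries. Their place in these counts and medians is no support for the list. Il33, an alarmin of the family, rose 3.29-fold in wild type and 4.21-fold in knockout (edgeR adjusted p = 0.000333 and 1.38e-05). Il1a, the other agonist of the IL-1 receptor, rose 1.95-fold and 1.75-fold (edgeR adjusted p = 0.0107 and 0.0111). Irak3, a brake on IL-1 receptor signalling, rose 3.22-fold in wild type (edgeR adjusted p = 0.00239) and had a 1.65-fold value in knockout that did not pass (edgeR adjusted p = 0.0865). Il18bp, which encodes the secreted protein that binds IL-18, rose 1.58-fold in wild type (edgeR adjusted p = 0.0281) and had a 1.39-fold value in knockout (edgeR adjusted p = 0.0565). Tollip passed in neither (log2 0.04 ± 0.07 SE and 0.13 ± 0.06 SE, edgeR adjusted p = 0.672 and 0.101). The genes that fell were not among the largest changes. Mean Il1rap, for one, went from 144 to 98.2 CPM in wild type and from 144 to 104 CPM in knockout.

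Of 22 tested genes of TNF receptor signalling and cell death, 6 rose and 1 fell in wild type (median log2 0.42), and 8 rose and 1 fell in knockout (median 0.35). Tnf itself and Traf1, at most 0.466 CPM on chow, passed the low-count filter only through the high-fat libraries. Their place in these counts and medians is no support for the list. Tnfaip3, which encodes the NF-kB inhibitor A20, rose from 3.28 ± 0.752 to 7.37 ± 0.350 CPM in wild type and from 2.43 ± 0.711 to 6.02 ± 1.37 CPM in knockout (SD, n = 3, 4, 4 and 5), with edgeR adjusted p = 0.00103 and 0.000114. The TNF-induced gene Tnfaip2 rose 2.01-fold and 1.88-fold, and Birc3, an inhibitor of apoptosis, rose 1.65-fold and 1.51-fold. Cflar, which restrains caspase-8, fell by 0.51 ± 0.10 SE and 0.35 ± 0.09 SE on the log2 scale (edgeR adjusted p = 0.00101 and 0.00579). Ltbr passed in neither genotype (log2 -0.17 ± 0.09 SE and -0.20 ± 0.08 SE, edgeR adjusted p = 0.196 and 0.0701).

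Of 25 NF-kB subunits, kinases and feedback genes, 6 rose and 4 fell in wild type (median log2 0.27), and 7 rose and 6 fell in knockout (median 0.26). Nfkbid, with chow means of 0.247 and 0.141 CPM, passed the low-count filter only through the high-fat libraries, so its place here is no support. The adhesion molecules Vcam1 and Icam1, both NF-kB targets, rose 3.83-fold and 2.53-fold in wild type and 2.61-fold and 1.98-fold in knockout (edgeR adjusted p from 3.54e-06 to 5.47e-05). Relb, an NF-kB subunit, rose 2.97-fold in wild type (edgeR adjusted p = 0.00478) and had a 1.63-fold value in knockout (edgeR adjusted p = 0.0986). Chuk passed in neither (log2 -0.07 ± 0.10 SE and 0.09 ± 0.08 SE, edgeR adjusted p = 0.618 and 0.418). The genes that fell were not among the largest changes. Mean Tab2, for one, went from 79.9 to 65.0 CPM in wild type and from 94.4 to 64.6 CPM in knockout. In the IL-6 receptor list, 2 of 14 tested genes rose and 2 fell in wild type, and 2 rose and 1 fell in knockout, close to or below the shares over all genes. Lif of this list, at 0 in each wild-type chow library, passed the low-count filter only through the high-fat libraries. Osmr, the oncostatin M receptor chain, rose 2.49-fold in wild type and 1.55-fold in knockout (edgeR adjusted p = 9.62e-05 and 0.00775), and Il6st, the shared signal chain gp130, had values of 1.08-fold and 1.11-fold that did not pass (edgeR adjusted p = 0.616 and 0.388). Il11ra1 fell in wild type (log2 -0.43 ± 0.14 SE, edgeR adjusted p = 0.0302) and did not pass in knockout (log2 -0.04 ± 0.12 SE, edgeR adjusted p = 0.849). No gene of the 5 lists passed in edgeR for knockout against wild type on either diet. Il6 itself is in the IL-6 receptor list but is not among the genes of the deposited count table, so it could not be tested.

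**Figure D3:**
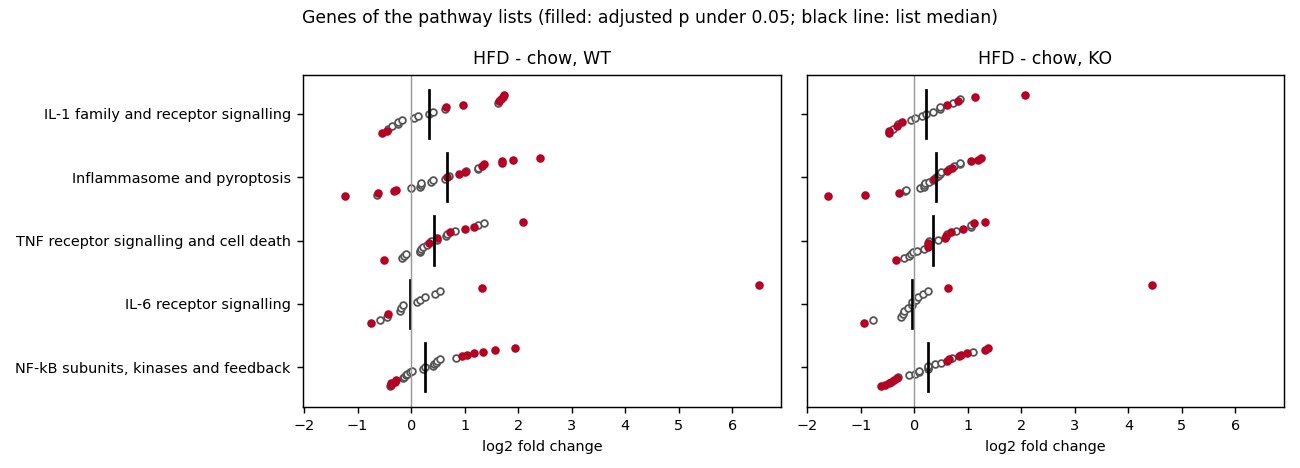
Log2 fold changes (x axis) of the tested genes of the 5 pathway lists, for high-fat diet (HFD) against chow in wild type (WT) and in knockout (KO). Filled points passed an edgeR adjusted p under 0.05 and the black line is the list median, which is 0.67 for the inflammasome list in wild type and 0.41 in knockout. The point farthest to the right is Lif, whose libraries were all at 0 in wild type on chow, so its fitted value is no measured fold.

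The sum of macrophage markers moved with the same contrast. The summed level of 16 Kupffer cell and macrophage markers was 455, 261 and 263 CPM in wild type on chow and 614, 1082, 751 and 898 CPM in wild type on high-fat diet. In knockout the sum was 429, 467, 491 and 474 CPM on chow and 1023, 573, 739, 710 and 715 CPM on high-fat diet. No high-fat library overlapped a chow library. Of the 16 markers, 11 rose and 0 fell in wild type (median log2 1.34), and 7 rose and 1 fell in knockout (median 0.63), with none at 0 throughout a group. The fitted change was above 0 for 14 and below 0 for 2 in wild type, and for 13 and 3 in knockout. From chow to high-fat diet, mean Cd163 went from 9.23 to 5.75 CPM in wild type and from 15.6 to 3.93 CPM in knockout. In the same order, Timd4 went from 3.73 to 2.96 and 4.29 to 3.19, Clec4f from 37.9 to 65.4 and 60.3 to 60.9, and Mpeg1 from 52.0 to 174 and 58.5 to 153. All 10 markers of monocytes and lipid-associated macrophages rose in both genotypes, their sum from 40.3 ± 8.20 to 203 ± 71.6 CPM in wild type and from 37.3 ± 6.06 to 138 ± 30.4 CPM in knockout (SD, n = 3, 4, 4 and 5). Ly6c2, Chil3 and Gpnmb had chow means of 0.0862 to 0.270 CPM, and Trem2 had 0.321 CPM in wild type and 0.401 CPM in knockout. All of these passed the low-count filter only through the high-fat libraries, where they are high, so their rises are no support. Of the sum, Spp1 made up 18.6 CPM on chow and 132.5 CPM on high-fat diet in wild type, and 15.6 and 77.8 CPM in knockout. In bulk liver, more cells of a type and more RNA per cell cannot be told apart.

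Set against that macrophage sum, the members differed. Casp1 was 2.76 ± 1.23, 2.72 ± 0.482, 2.74 ± 0.512 and 2.66 ± 0.576 CPM per 1000 CPM of the 16 markers in wild type on chow, knockout on chow, wild type on high-fat diet and knockout on high-fat diet. These Casp1 means lay within 1 SD of each other. Nlrp3 was 1.40 ± 0.659, 1.97 ± 0.470, 2.08 ± 0.623 and 1.67 ± 0.400, and Il1rn 13.7 ± 5.12, 10.1 ± 3.25, 16.1 ± 6.88 and 14.6 ± 4.96, in the same unit and order, with all 4 groups overlapping. Il6ra went from 285 ± 74.7 and 200 ± 36 on chow to 67.8 ± 27.8 and 64.6 ± 9.36 on high-fat diet, with no overlap between diets. Il1r1 (198 and 136 to 59.6 and 62.6) and Nfkbia (157 and 105 to 54.8 and 53.2) did not overlap between diets either. The marker sum itself rose with diet, so a gene that does not follow it falls on this scale. The part of the macrophage markers in these results was not tested.

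Between the genotypes, 0 of the 16 macrophage markers passed in edgeR on either diet. The fitted log2 fold change of knockout against wild type was above 0 for all 16 on chow (median 0.57) and below 0 for 14 of 16 on high-fat diet (median -0.14), although the chow marker sums overlapped, at 261 to 455 CPM in wild type and 429 to 491 CPM in knockout. Signs ran the same way in some other lists, in which 0 genes passed either: endothelial markers were above 0 for 12 of 12 on chow and below 0 for 10 of 12 on high-fat diet (medians 0.30 and -0.38), stellate markers for 10 and 9 of 10 (0.23 and -0.20), neutrophil markers for 4 and 5 of 5 (1.37 and -1.08), and monocyte and lipid-associated macrophage markers for 6 and 8 of 10 (0.28 and -0.24). The rest did not show this. T and NK cell markers were above 0 for 6 of 9 on each diet. On chow and high-fat diet, B and plasma cell markers were above 0 for 5 and 6 of 7, and hepatocyte markers for 5 and 6 of 9. Cholangiocyte markers were below 0 for 4 and 6 of 6. Over all tested genes the median log2 fold change of knockout against wild type was 0.000452 on chow and 0.0033 on high-fat diet. All markers were measured in the same libraries, so signs within or between lists are not separate observations. Nlrp3, Casp1, Tnf and Il1rn had the same order of the 4 group means as the marker sum: wild type on chow lowest, then knockout on chow, then knockout and wild type on high-fat diet. The other members, Il1b, Il18, Pycard, Il1r1, Il6ra and Nfkbia, did not have that order. No member passed between the genotypes, and the match of orders was not tested. The stellate sum (331, 375, 456 and 518 CPM) and the neutrophil sum (3.26, 4.69, 6.13 and 10.2 CPM) had the order of the macrophage sum too, whereas the sum of monocyte and lipid-associated macrophage markers did not, at 40.3 CPM in wild type and 37.3 CPM in knockout on chow. Spp1, which is also in the cholangiocyte list, made up 18.6 and 15.6 CPM of these. Of the other lists, neutrophil markers (5 of 9 in the table tested) rose for 4 in wild type and 1 in knockout, with summed levels of 2.72 to 13.2 CPM. Hepatocyte markers fell for 7 of 9 in wild type and 5 in knockout. Markers rose for 7 of 12 endothelial, 8 of 10 stellate, 3 of 6 cholangiocyte, 1 of 9 T and NK cell and 0 of 7 B and plasma cell genes in wild type, and for 0, 6, 2, 0 and 2 of them in knockout, where 3 endothelial genes and 1 stellate gene fell. The shares over all tested genes that rose were 15.2% in wild type and 17.4% in knockout, and the T and NK cell counts and the wild-type B and plasma cell count lay below them.

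**Figure D4:**
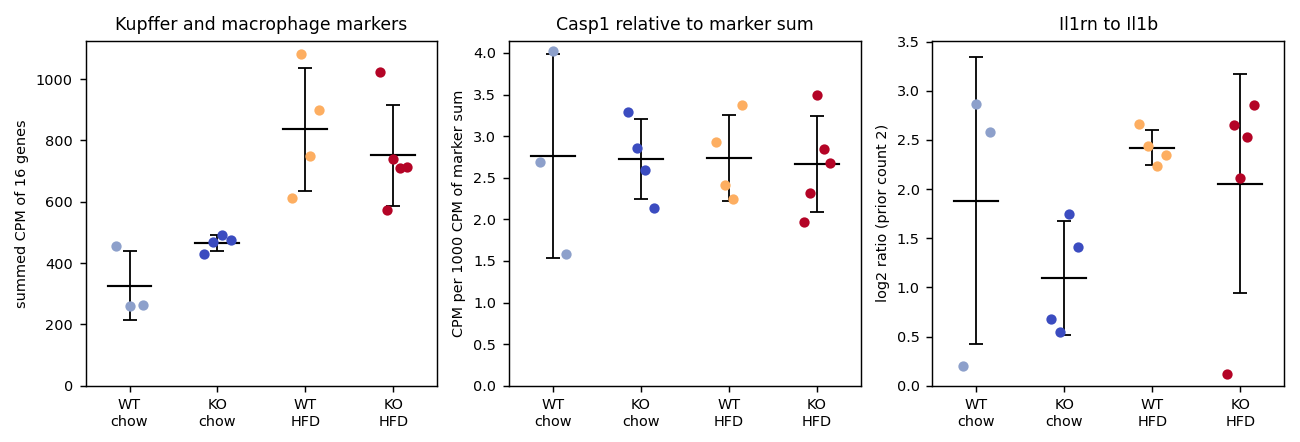
Left, summed CPM of 16 Kupffer cell and macrophage markers in each library. Middle, Casp1 CPM per 1000 CPM of that sum, with group means of 2.66 to 2.76. Right, the log2 ratio of Il1rn to Il1b (prior count 2), with high-fat knockout 1 at 0.12. Points are libraries of wild type (WT) and knockout (KO) on chow and high-fat diet (HFD), lines are means and bars are SD.

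Profiles over the 16 libraries were compared by the root mean square difference of centred log2 CPM among 14155 genes with a mean of at least 1 CPM in a group. The 3 genes closest to Nlrp3 were Arhgdib (0.29), Srgn (0.30) and Tlr4 (0.32), against a spread of 0.74 for Nlrp3 itself. Arhgdib and Srgn are abundant in blood cells, and Tlr4 encodes the receptor for lipopolysaccharide. The closest to Casp1 were Pla2g7 (0.24), Gm1966 (0.25) and Arhgdib (0.25), against 0.62 for Casp1. For Il1rn they were Ehd4 (0.28), Iqcg (0.29) and Krt8-ps (0.29), against 0.75.

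The profile nearest to Il6ra was that of Fbxo31 (0.13, against a spread of 0.53 for Il6ra), followed by Hsd17b10 (0.19) and Ahcy (0.22). Il18 was closest to Eid1, Zfp655 and Cd46 (0.19 each, against 0.35), and Nfkbia to Susd6, Rpl30 and Csnk2b (0.11 to 0.12, against 0.20). By this difference, which is not scaled to the spread of a gene, Tnf had the least close neighbours. They were Rtkn (0.34), Vldlr (0.42) and E2f2 (0.44), against its own 0.84, the largest spread of these genes. These likenesses are descriptions over 16 libraries in which diet is the main axis.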

How the data were processed

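Per the labels' protocols, snap-frozen liver gave total RNA that was depleted of ribosomal RNA (Ribo-Zero), and TopHat2 (alignment) and Cuffdiff (quantification) processed the reads. Per the submitters' processing notes, mm10 was the build. No label gives tool versions, the strand setting or the making of the deposited table. Its values, deposited by the authors, were taken as estimated counts: 32.8% to 37.9% of a library's values are exactly whole (tolerance 0), and totals differ. The smallest row total is 10. A ribosomal RNA row holds 0.637% to 14.6% of a library.

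Estimated counts were rounded to whole numbers, filtered with filterByExpr, scaled by TMM and fitted in edgeR 4.0.16 (quasi-likelihood, robust, 4 groups, 12 residual degrees of freedom), with Benjamini-Hochberg adjustment over 16830 genes, two-sided, threshold 0.05. The standard error is the absolute log2 fold change over the square root of F. The test was checked on simulated counts. Alternatives included DESeq2 1.42.0, limma 3.58.1 voom, other filters and each library left out. The 10 genes, 5 pathway lists and 9 marker lists were chosen with earlier results of these data known. All 10 genes were named. Per pathway list, the rule took up to 4 of the largest wild-type diet changes that passed with a mean of at least 1 CPM, and the most abundant gene that did not. The text names each of these, and a few genes outside the rule. Promoter windows were found for all 10 genes.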

Additional observations from a re-analysis of the deposited data

Results flagged for a closer look

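In 33 groups of 4 or 5 libraries, 1 library was checked against the others of its group by Dixon's gap test, which chance passes in about 1 of 20 groups. Wild type on chow, with 3 libraries, was not checked. The test picked out 3 values, all in high-fat knockout 1. Il1b was 7.44 CPM there, and the gap to the next library was 0.80 of the range of the group. Il1r1 was 92.3 CPM there, with a gap of 0.83 of the range. The log2 ratio of Il1rn to Il1b, which holds that same Il1b value and so is no separate pick, was 0.12 there, with a gap of 0.73. That library also stood apart on the third principal component. It was 1 of 5 of its group, had 20993930 estimated counts, the lowest total of that group, and differed from the other 4 in several marker sums. Its B and plasma cell sum was 24.2 CPM against 4.80 to 8.13 CPM, its endothelial sum 302 against 232 to 244 CPM, and its Kupffer cell and macrophage sum 1023 against 573 to 739 CPM. Its hepatocyte sum, 76246 CPM, and its monocyte and lipid-associated macrophage sum, 106 CPM, were the lowest of the group. The part of these in the 3 values was not tested.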

How the results depend on the processing

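Il1rn, Nlrp3 and Casp1 in wild type and Il1rn and Il6ra in knockout kept their diet calls under each alternative run, and 0 of the 10 genes passed in any knockout comparison. Leaving out 1 library gave 4 to 5 calls in wild type and 3 to 5 in knockout. Fitting the 2 knockout groups alone gave 6, adding Tnf and Casp1 (edgeR adjusted p = 0.0386 and 0.0441), and Casp1 was also gained without high-fat knockout 2 (edgeR adjusted p = 0.0397). Tnf did not pass the stricter filter. Of 842 values under alternatives, 792 kept direction and call, 12 lost and 6 gained a call, and 32 changed sign. The high-fat minus chow difference of the log2 ratio of Il1rn to Il1b ranged from 0.326 to 0.993 with 1 library left out (highest without chow wild type 2, and 0.988 when high-fat knockout 1 was left out) and was 1.16 without high-fat knockout 1 together with chow wild type 3, the pair that stood apart. The sign changes were all of log2 fold changes that passed in neither setting, and the cause was not tested. For diet in knockout, Il1b was -0.141 without the pair and -0.143 to 0.669 with 1 library left out. Pycard was -0.029 to 0.281 with 1 library left out. For genotype on high-fat diet, Il1b was -0.282 without the pair and -0.283 to 0.547 with 1 library left out. Il1r1 was -0.0921 by voom, -0.335 without the pair and -0.335 to 0.154 with 1 library left out. Il18 was -0.00284 by voom, -0.00493 without the pair and -0.0931 to 0.0748 with 1 library left out. Tnf was -0.33 to 0.0781 with 1 library left out. Il6ra was -0.299 to 0.0567 with 1 library left out. For genotype on chow, Il1r1 was 0.00178 with the stricter filter, 0.03 by voom, 0.0958 without the pair and -0.284 to 0.219 with 1 library left out. Il18 was 0.0291 without the pair and -0.28 to 0.0329 with 1 library left out. Il6ra was -0.114 to 0.18 with 1 library left out. Nfkbia was -0.0136 to 0.0723 with 1 library left out. For the difference between diets, Il18 was -0.034 without the pair and -0.0122 to 0.301 with 1 library left out. Il6ra was -0.352 to 0.00123 with 1 library left out. No paired analysis was possible because replicate numbers follow deposition order. Over all genes, the genotype comparison on high-fat diet called 1 gene in edgeR, 8 by DESeq2, 2 by voom, 3 unfiltered and 4 with the 2 groups alone. On chow it called 1 in edgeR, 2 by DESeq2 and 0 by voom. The mean of both called 3, 5 and 1, and their difference 0, 13 and 0. List counts, read under the same alternatives after seeing the data, moved by more than 1.5 times for the wild-type IL-1 family rises (3 for 6, without chow wild type 2), the knockout TNF rises (5 for 8, without chow knockout 2), the knockout inflammasome falls (5 for 3, without the pair), the wild-type NF-kB falls (1 for 4, without chow wild type 2 or high-fat wild type 2 or 3), the wild-type hepatocyte falls (4 for 7, without chow wild type 2) and the wild-type endothelial rises (4 for 7, without chow wild type 3). Counts of 3 or fewer also varied. Depth limits Tnf most, at 0 to 21 counts.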
